A study of Mus musculus with 8 samples.

Results

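Midkine (Mdk), pleiotrophin (Ptn), the syndecans Sdc1, Sdc2, Sdc3 and Sdc4, and the receptor genes Alk and Ptprz1 were followed in injured muscle of aged mice with and without recombinant interleukin 33 (rIL-33). These 8 genes, out of 19752 genes with a value, were taken by name, each with its 1 probe set that carries a single gene symbol. The set was chosen by results of the comparison of rIL-33 with PBS intensities, in which Mdk was among the lower genes, so the differences of its members between those groups are given as a description without a test. The mice were male C57BL/6 animals, aged 99 weeks by the labels (22 months by the design text), and all of them had the tibialis anterior muscle cryoinjured with a chilled probe held on for 8 s. The treated group (4 arrays) had 2 µg of rIL-33 by injection into the abdomen on the day before and again on the day after the injury, and the control group (4 arrays) carried the label PBS. Whole muscle was taken at day 8, so no array shows uninjured muscle, another time point or an isolated cell type. The genetic background is given as C57BL/6 for replicates 1 and 2 of either group and as WT for replicates 3 and 4, and the sources used here do not say how these labels differ.

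Midkine and pleiotrophin form a family of small secreted growth factors that bind heparan sulfate and chondroitin sulfate chains. The chains are carried by proteoglycans, and the syndecans are the transmembrane heparan sulfate proteoglycans through which such factors are held at the cell surface. ALK, a receptor tyrosine kinase, and PTPRZ1, a receptor tyrosine phosphatase with chondroitin sulfate chains, have been described as signalling receptors of both factors. In muscle, syndecan-3 and syndecan-4 are known from satellite cells, the stem cells that rebuild fibres after injury. Interleukin 33 is a cytokine released from damaged tissue, with regulatory T cells and group 2 innate lymphoid cells among its targets.

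Both growth factors were lower on every rIL-33 array than on every PBS array, Mdk by 0.43 and Ptn by 0.67 on the log2 scale. Of the syndecans, Sdc4 showed the same separation with a smaller difference of -0.11, whereas the groups overlapped for Sdc1, Sdc2 and Sdc3. Alk overlapped as well, and Ptprz1 was too dim to be tested. Among the 14814 genes bright enough to be tested in limma, 0.00675% passed an adjusted p of 0.05 (Benjamini-Hochberg), the single gene being Retnla, a gene of alternatively activated macrophages, and none of the 7 members among them was past it. Of the tested members 6 were lower with rIL-33, beside 52% of all genes tested, and 3 lay wholly below the PBS arrays, beside 2.13% of all genes tested. The rule rests on this contrast, so nothing is read from those shares.

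**Figure D1:**
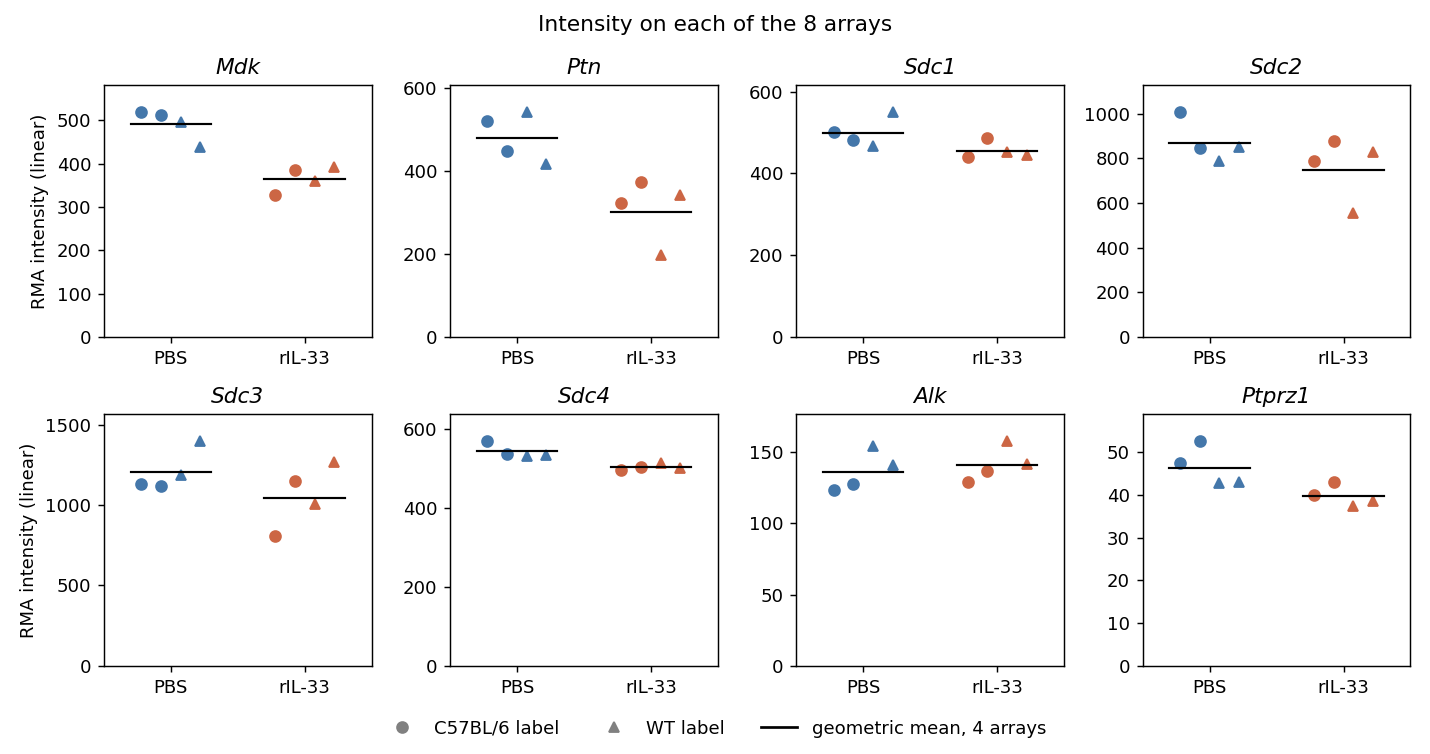
RMA intensity (linear scale, from 0) of each gene on each array, by treatment; circles are arrays labelled C57BL/6, triangles arrays labelled WT, and the bar is the geometric mean of 4 arrays. Mdk, Ptn and Sdc4 show no overlap between PBS and rIL-33, and Alk separates by genetic background label.

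Mdk, which encodes midkine, had intensities of 519, 512, 496 and 438 in PBS replicates 1 to 4. With rIL-33 it stood at 328, 384, 359 and 392 in replicates 1 to 4. The highest rIL-33 array thus lay below the lowest PBS array, and PBS replicate 4 was the PBS array nearest to the treated ones. Mean log2 intensity was 8.94 ± 0.11 with PBS and 8.51 ± 0.12 with rIL-33 (SD, n = 4 per group). The log2 difference was -0.43 (SE 0.09), or 1.34-fold lower, and 1.32% of the genes tested had a more negative one. Taken by label it was -0.54 (C57BL/6) and -0.31 (WT), and it lay between -0.48 and -0.38 when any 1 array was left out.

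Ptn, which encodes pleiotrophin, had PBS intensities of 520, 449, 543 and 417 in replicates 1 to 4. The rIL-33 intensities were 322, 374, 198 and 342. All treated arrays lay below all PBS arrays, and rIL-33 replicate 3 was the lowest by a wide margin. The group means were 8.91 ± 0.18 and 8.23 ± 0.41 log2 intensity (SD, n = 4), so the treated arrays were more scattered than the PBS arrays. The log2 difference was -0.67 (SE 0.18), a 1.60-fold lower level, with -0.48 within the C57BL/6 label and -0.87 within the WT label. Without rIL-33 replicate 3 it was -0.47. Of the genes tested, 0.203% had a more negative difference than Ptn.

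Sdc4, a syndecan of focal adhesions that also marks satellite cells, had the smallest SD of the 8 genes in both groups. Its PBS intensities were 571, 537, 533 and 536 in replicates 1 to 4. Its rIL-33 intensities were 498, 506, 514 and 502. The groups did not overlap, but the gap between the highest rIL-33 array and the lowest PBS array was small against the level itself. PBS replicate 1 stood above the 3 other PBS arrays, which lay close together. Mean log2 intensity was 9.09 ± 0.05 with PBS and 8.98 ± 0.02 with rIL-33 (SD, n = 4), a difference of -0.11 (SE 0.06) or 1.08-fold. The difference was -0.14 within the C57BL/6 label, -0.07 within the WT label and -0.09 without PBS replicate 1.

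The promoter windows of Ptn and Sdc4 are shown because both genes were lower on all treated arrays. They were read from the RefSeq table of build GRCm38.p6, from 250 bases before to 50 bases after the annotated start, and 6 of the 8 genes have an entry there. The third gene without overlap, Mdk, was not matched, nor was Sdc2. The Ptn window lies at chr6:36810130-36810429 on the minus strand, with its CCAAT box in capitals. The Sdc4 window lies at chr2:164443139-164443438 on the minus strand, with 4 GC boxes and 1 match to the NF-kappaB consensus in capitals.
Ptn: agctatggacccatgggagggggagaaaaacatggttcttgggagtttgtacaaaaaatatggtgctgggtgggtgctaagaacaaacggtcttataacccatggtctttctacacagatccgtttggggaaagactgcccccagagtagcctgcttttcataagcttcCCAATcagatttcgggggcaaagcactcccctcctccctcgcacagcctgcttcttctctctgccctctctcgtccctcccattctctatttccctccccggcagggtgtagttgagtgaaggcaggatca
Sdc4: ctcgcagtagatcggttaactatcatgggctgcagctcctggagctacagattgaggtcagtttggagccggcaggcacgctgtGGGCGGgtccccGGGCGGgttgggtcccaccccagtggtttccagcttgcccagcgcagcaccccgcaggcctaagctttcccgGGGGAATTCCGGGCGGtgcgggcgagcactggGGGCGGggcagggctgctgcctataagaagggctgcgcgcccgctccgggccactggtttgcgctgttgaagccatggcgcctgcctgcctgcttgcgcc

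Both strands were searched for the GC box (GGGCGG), the E-box (CANNTG), the AP-1 motif (TGANTCA), the TATA box (TATAAA), the CCAAT box (CCAAT) and the NF-kappaB consensus. In the Sdc4 window the NF-kappaB match, GGGGAATTCC, directly adjoins a GC box without sharing a base with it. It is the only such match among the 6 windows, and 4.51% of all 32851 windows of this length hold one. GC boxes occur in 35.7% of all windows, and Sdc1 and Sdc3 have 3 each, Ptprz1 has 2 and Alk 1, while Ptn has 0. The CCAAT box is in 37.4% of all windows and, of the 6, in those of Ptn and Sdc1. The E-box, found in 72.3% of all windows, was present in the Sdc1 window alone among the 6, and none of the 6 held an AP-1 motif (7.81% of all windows) or a TATA box of these letters (13.6%). A match is a stretch of letters, and no binding was measured here.

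Sdc1, the syndecan of epithelia and plasma cells, had PBS intensities of 501, 482, 466 and 550 in replicates 1 to 4. The rIL-33 intensities were 439, 487, 452 and 446. rIL-33 replicate 2 lay above PBS replicates 2 and 3, so the groups overlapped. The log2 difference was -0.13 (SE 0.08), and -0.08 without PBS replicate 4, the highest array.

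Sdc2, known from fibroblasts and vessels, had PBS intensities of 1008, 845, 788 and 852. Those with rIL-33 were 787, 876, 554 and 827. rIL-33 replicate 3 was lowest, as it was for Ptn, rIL-33 replicate 1 lay just below the lowest PBS array, and the other two fell among the PBS arrays. The log2 difference was -0.21 (SE 0.14) on all arrays and -0.07 without rIL-33 replicate 3.

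Sdc3, the syndecan of nerve and satellite cells, had PBS intensities of 1128, 1120, 1185 and 1399. Under rIL-33 they were 804, 1147, 1004 and 1267. Here replicate 1, not replicate 3, was the low array of the treated group, and replicate 4 lay above 3 PBS arrays. The log2 difference was -0.21 (SE 0.14), and -0.08 without rIL-33 replicate 1. The differences of Sdc2 and Sdc3, equal to 2 decimals, therefore each rested in large part on a single array, and not on the same one.

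Of the receptor genes, Alk had PBS intensities of 123, 127, 154 and 141 in replicates 1 to 4. With rIL-33 it had 129, 137, 158 and 142. The treated and PBS arrays interleaved, and the log2 difference was 0.05 (SE 0.09) on all arrays and -0.0005 without rIL-33 replicate 3. Ptprz1 had PBS intensities of 47.5, 52.6, 42.7 and 42.9, and rIL-33 intensities of 40.1, 43.0, 37.3 and 38.6. All of these lie under 100.4, the cut-off below which a gene's mean was taken as dim. Its log2 difference of -0.22 (SE 0.09) is therefore outside the genes tested, and background signal weighs most at such levels.

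**Figure D2:**
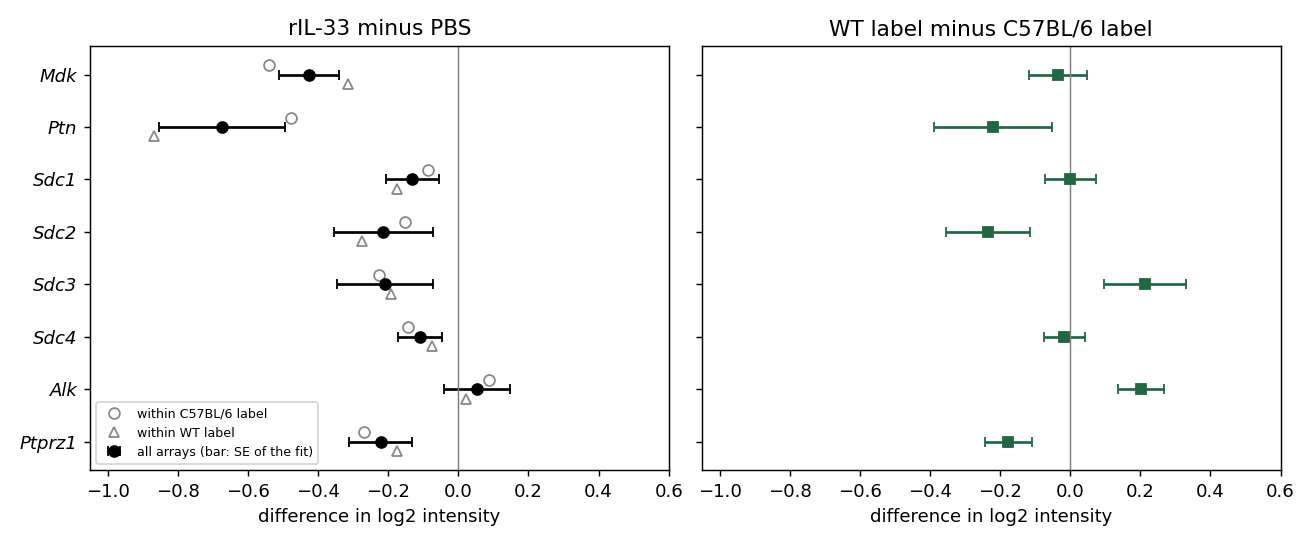
Differences in log2 intensity for each gene. Left, rIL-33 minus PBS over all 8 arrays (filled circles, bars are the SE of the limma fit) and within each label (open symbols); right, WT-labelled minus C57BL/6-labelled arrays with treatment in the model, bars SE. On the left 7 of the 8 genes lie below 0 within both labels; on the right no tested gene passed the threshold.

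The genetic background label gives a comparison that did not enter the choice of these genes. With treatment in the model, 0 of the 7 tested members differed between WT-labelled and C57BL/6-labelled arrays at an adjusted limma p of 0.05, beside 9.4% of all genes tested, and 1 had an unadjusted p under 0.05, beside 32.9%. Alk came nearest to the threshold. All 4 WT-labelled arrays, between 141 and 158 in intensity, lay above all 4 C57BL/6-labelled arrays, between 123 and 137, a separation seen in one direction or the other in 20.2% of genes tested. The log2 difference of Alk, WT minus C57BL/6, was 0.20 (SE 0.07, limma adjusted p = 0.0736), with an adjusted p between 0.0552 and 0.347 over the 15 alternative settings in which Alk was bright enough to be tested. Alk differed by 0.10 after quantile normalization, which makes the whole distribution of intensities equal on all arrays, and by 0.08 after cyclic loess.

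The other members overlapped between the labels. Sdc3 differed by 0.21 (SE 0.12, limma adjusted p = 0.230) and Sdc2 by -0.23 (SE 0.12, limma adjusted p = 0.199), in opposite directions. Sdc3 passed the threshold in 1 of 16 alternatives, with array weights (0.36, limma adjusted p = 0.0333). Ptn differed by -0.22 (SE 0.17, limma adjusted p = 0.383), and by -0.02 without rIL-33 replicate 3. Mdk (-0.03, SE 0.08, limma adjusted p = 0.804) and Sdc4 (-0.02, SE 0.06, limma adjusted p = 0.865) had label differences well under their own SE, as did Sdc1. The lower quartile of intensity lay between 88.3 and 93.8 on the C57BL/6-labelled arrays and between 97.1 and 107 on the WT-labelled ones. The number of genes past the label threshold, 1392, varied from 10 to 2510 when 1 array was left out (10 without rIL-33 replicate 1, 2510 without rIL-33 replicate 2), so the background share for the label depends on single arrays.

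Whether the rIL-33 difference itself varied with the label was tested as an interaction in limma. None of the 7 tested members passed an adjusted p of 0.05 and 0 had an unadjusted p under 0.05, beside 0% and 3.19% of all genes tested. The largest interaction among the members was that of Ptn, -0.39 (SE 0.33, limma adjusted p = 0.999), followed by Mdk at 0.22 (SE 0.16, limma adjusted p = 0.999). With 2 arrays for each combination of treatment and label, differences of this size could not be told from the spread between arrays.

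The genes around these members were described from 9 lists of related genes, with 108 genes of which 105 had a value and 96 were tested. In limma 0 of the 96 passed an adjusted p of 0.05 in rIL-33 against PBS (smallest adjusted p = 0.489), while 18 lower and 2 higher genes had an unadjusted p under 0.05, together 20.8% beside 9.63% of all genes tested. Of the 96 genes 72 were lower, which is 75% beside 52% of all genes tested, and their median log2 difference was -0.08 beside -0.0055 for all genes tested. All treated arrays lay below all PBS arrays in 6 of them, 6.25% beside 2.13%, and above them in 0, beside 2.44%. The lists were chosen with earlier results of these data known, so nothing is read from these shares either.

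None of the other tested receptor and ALK ligand genes separated the groups without overlap. Of 13 tested genes 9 were lower, with a median of -0.08. The largest differences were those of Lrp1, an endocytic receptor that binds midkine (-0.23, SE 0.11; -0.15 without rIL-33 replicate 3), and the integrin gene Itgb3 (-0.19, SE 0.10; -0.13 without PBS replicate 4). The ALK ligand gene Alkal1 was dim.

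Other proteoglycan cores were lower on the whole. Of 11 tested cores with heparan sulfate or related chains 8 were lower, with a median of -0.24. The largest differences were those of Cd44, the hyaluronan receptor (-0.40, SE 0.20; -0.26 without rIL-33 replicate 3), and the glypican Gpc3 (-0.37, SE 0.13). Col18a1, which encodes a basement membrane collagen with heparan sulfate, was the 1 core gene of this list without overlap and was named for that after its values were seen (-0.34, SE 0.11). All 6 tested chondroitin sulfate proteoglycan cores were lower, with a median of -0.24. Versican (Vcan), the large matrix proteoglycan of healing tissue, had intensities between 885 and 1813 with PBS and between 647 and 953 with rIL-33, and differed by -0.70 (SE 0.21). Biglycan (Bgn) differed by -0.34 (SE 0.13), and decorin (Dcn), the small proteoglycan of collagen fibrils, by -0.28 (SE 0.07) without overlap.

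Genes that build the sugar chains were centred nearer to 0 than the genes of the cores. Of 22 tested genes of heparan sulfate synthesis and sulfation 12 were lower and 10 higher, with a median of -0.02. The largest differences in that list were upward, in the sulfotransferase gene Hs3st5 (0.32, SE 0.18; 0.15 without rIL-33 replicate 1) and the exostosin-like gene Extl1 (0.16, SE 0.10). Of 15 chondroitin sulfate synthesis genes 13 were lower, with a median of -0.10, among them Csgalnact1, which starts the chain (-0.33, SE 0.14), and Chsy1, which extends it (-0.26, SE 0.11). In this list 2 genes were lower without overlap, Chpf2 and Chst12, named for that after their values were seen. Of the 9 tested genes that edit or degrade heparan sulfate 7 were lower, with a median of -0.04. The 2 largest were the extracellular sulfatases that trim 6-O-sulfate from the chains. Sulf2 had PBS intensities of 1466, 1258, 1503 and 1627 and rIL-33 intensities of 910, 1281, 816 and 1330, a difference of -0.46 (SE 0.16). Sulf1 differed by -0.39 (SE 0.14), and both sulfatase genes overlapped between the groups.

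All 8 tested sheddases, proteases that can cut syndecan ectodomains from the surface, were lower, with a median of -0.33. Gelatinase A (Mmp2) had PBS intensities of 5828, 5334, 5656 and 5976 and rIL-33 intensities of 3314, 4467, 3450 and 4720, with no overlap and a difference of -0.53 (SE 0.12). The difference of gelatinase B (Mmp9) was -0.64 (SE 0.25) on all arrays, -0.15 and -1.12 in the C57BL/6 and WT labels, and -0.39 without PBS replicate 4. Of 7 tested cytoplasmic partners of the syndecans 4 were lower, with a median of -0.07. The protein kinase C gene Prkca, whose product binds the syndecan-4 tail, was higher by 0.25 (SE 0.09), while the actin crosslinker gene Actn4 was lower by 0.27 (log2 difference -0.27, SE 0.11). All 5 genes listed for PTPRZ1 substrates and related proteins were lower, with a median of -0.10. The kinase gene Fyn differed by -0.22 (SE 0.11) and the adaptor gene Afap1l2 by -0.13 (SE 0.06), the latter without overlap.

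**Figure D3:**
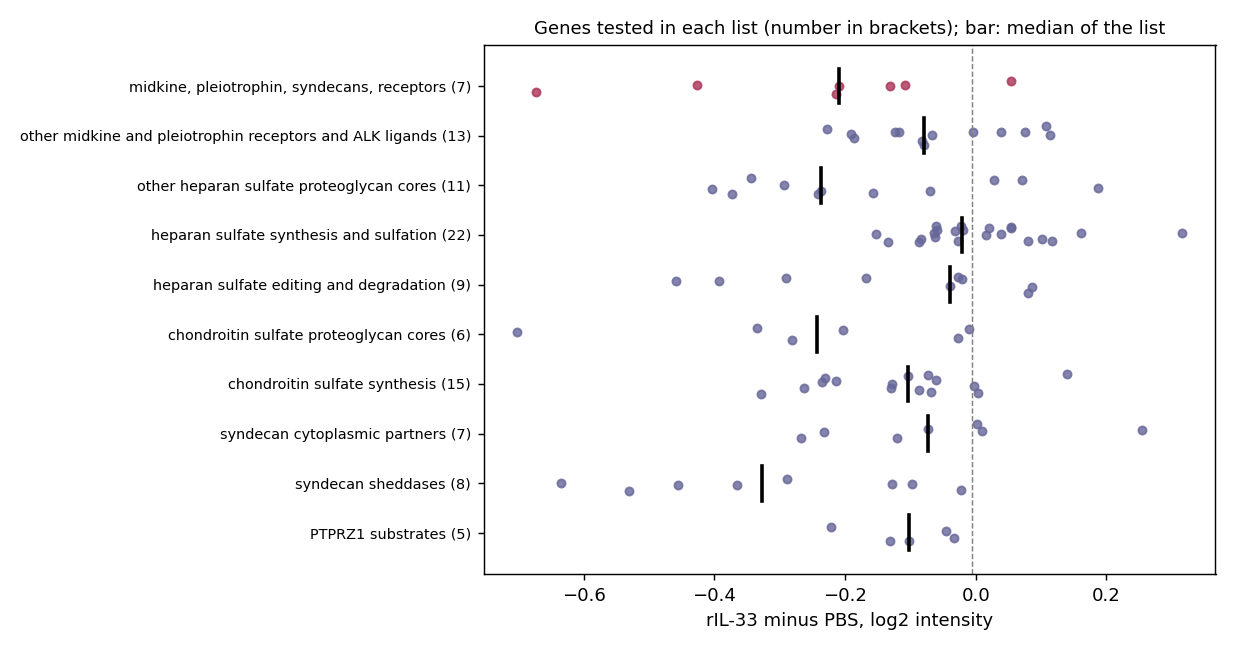
Log2 difference, rIL-33 minus PBS, of every tested gene of each list (points, spread vertically for sight; number tested in brackets), with the list's median as a black bar and the median of all genes tested as a dashed line. The sheddases and both kinds of proteoglycan core have medians between -0.33 and -0.24, while heparan sulfate synthesis is centred at -0.02.

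By label, 1 of the 96 related genes passed an adjusted limma p of 0.05 (1.04%, beside 9.4% of all genes tested), and 23 had an unadjusted p under 0.05 (24%, beside 32.9%). This gene, Gpc1, which encodes a lipid-anchored glypican and was named after its value was seen, was lower in the WT-labelled arrays by a log2 difference of -0.30 (SE 0.07, limma adjusted p = 0.0320). The adjusted limma p of Gpc1 lay between 0.00755 and 0.104 over 16 alternatives, and it lost the call in 8 of them, quantile normalization (-0.21) and cyclic loess (-0.20) included. Left-out arrays that ended the call were rIL-33 replicate 1 (-0.31), rIL-33 replicate 3 (-0.32) and each PBS array in turn (between -0.32 and -0.26).

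The genes whose pattern over the 8 arrays was most like that of Mdk were ranked by Pearson's r of log2 intensity among all genes tested. The values are a description, since the genes were picked for them, and part of each r comes from the step between treatment groups. Agtr2, the type 2 angiotensin II receptor gene, came first (r = 0.98, Spearman's rho = 0.98), with intensities between 215 and 294 with PBS and between 115 and 162 with rIL-33. Glt8d2, a glycosyltransferase gene, followed (r = 0.97, rho = 0.90), then Fzr1, an activator of the anaphase-promoting complex (r = 0.96, rho = 0.93), Slc25a45, a mitochondrial carrier gene (r = 0.95, rho = 0.88), and Engase, which encodes a glycosidase of N-glycans (r = 0.95, rho = 0.93). Without the 2 arrays farthest from the median of Mdk, r of these 5 genes lay between 0.89 (Engase) and 0.99 (Glt8d2). Their sizes differed: Agtr2 was lower with rIL-33 by -0.85 (SE 0.14) on the log2 scale, Glt8d2 by -0.43 (SE 0.09), and Fzr1 by -0.11 (SE 0.06).

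**Figure D4:**
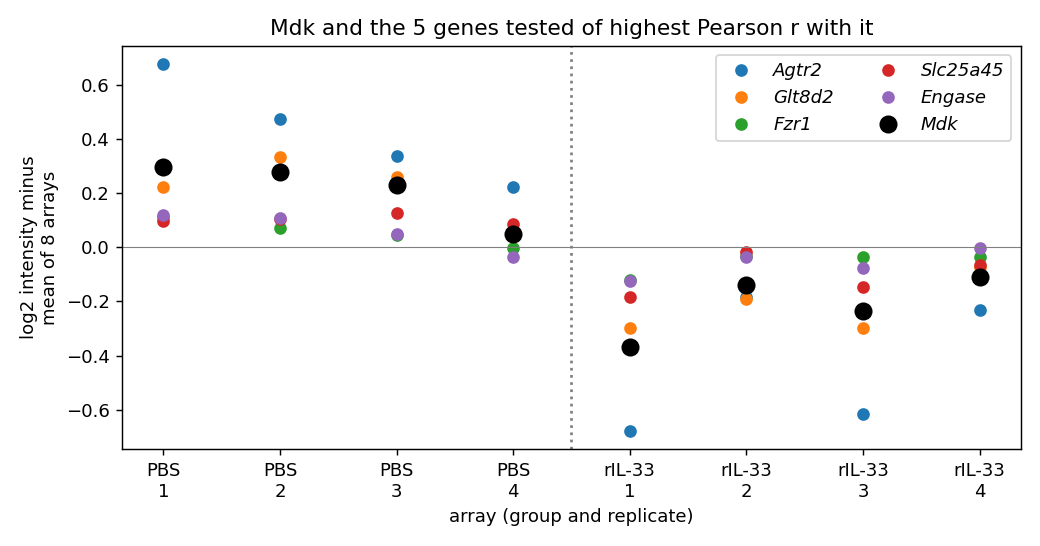
Log2 intensity of Mdk (black) and of the 5 genes of highest Pearson r with it, each minus its own mean over the 8 arrays, by array; the dotted line separates PBS from rIL-33. Mdk and Agtr2 have their lowest value on rIL-33 replicate 1 and their highest on PBS replicate 1.

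Whole muscle was profiled, so fewer cells of a type and less RNA per cell cannot be told apart. The labelled tissue was borne out by its markers, all 10 skeletal muscle fibre genes being measured and none dim. Of these 8 were higher and 2 lower with rIL-33, with a median of 0.05 and sums of 98343 to 112062 with PBS and 104058 to 115008 with rIL-33. Beside the lower Mdk, Ptn and proteoglycan values, all 10 tested markers of fibro-adipogenic progenitors and fibroblasts were lower, with a median of -0.36. Of these 6 did not overlap, beside 2.13% of all genes tested, and Dcn, which is among them, also counts among the proteoglycan cores. The lists were chosen with earlier results of these data known, so nothing is read from that share or from the counts of the other marker lists. The summed intensity of these progenitor and fibroblast markers was 28928 to 32872 with PBS and 21080 to 25944 with rIL-33. The lowest array for Ptn, Sdc2 and the dim Ptprz1, rIL-33 replicate 3, was also lowest there. It was lowest as well in the summed macrophage, cell cycle, endothelial, pericyte and smooth muscle, satellite cell and regenerating fibre markers. Mdk, Sdc1, Sdc3 and Sdc4 were instead lowest on rIL-33 replicate 1, and Alk on PBS replicate 1. Lumican (Lum) differed by -0.76 (SE 0.15) and Pdgfra, the receptor that marks fibro-adipogenic progenitors, by -0.35 (SE 0.11). Macrophage markers were lower in 8 of 10, with a median of -0.26 and 3 without overlap. Their sums were 8130 to 10515 with PBS and 6375 to 8639 with rIL-33. Cell cycle genes were lower in 9 of 9, with a median of -0.40 and 0 without overlap, and with sums of 4283 to 5739 and 3019 to 4903.

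Summed markers of the myogenic cells overlapped between the groups. Satellite cell markers were lower in 5 of 10 and higher in 5, with a median of -0.0019, and their sums were 5490 to 6591 with PBS and 5119 to 6333 with rIL-33. Regenerating fibre markers were lower in 10 of 11, with a median of -0.05, and summed to 35474 to 39985 with PBS and 30461 to 42349 with rIL-33. Myog, the differentiation factor of myoblasts, differed by -0.22 (SE 0.19; -0.06 without rIL-33 replicate 3). Embryonic myosin (Myh3) differed by -0.04 (SE 0.19), or by 0.14 without rIL-33 replicate 3. Outside the myogenic cells, endothelial markers were lower in 8 of 10, with a median of -0.10 and 2 genes without overlap. The sums of this list, 10032 to 10984 with PBS and 8618 to 10002 with rIL-33, did not overlap, as in the fibro-adipogenic progenitor and fibroblast list. Pecam1 differed by -0.11 (SE 0.07). Schwann cell markers were lower in 5 of 8, with 0 without overlap (sums of 4531 to 5079 and 3978 to 4696). Those of pericytes and smooth muscle were lower in 7 of 9, with 2 without overlap (12724 to 14112 and 10260 to 12730). All 7 tenocyte markers were lower (6499 to 8476 and 5760 to 7308), as were all 4 tested plasma cell and B cell markers (932 to 1062 and 936 to 1035). Of the tenocyte markers 2 did not overlap. Among all genes tested 52% were lower and 2.13% were lower without overlap, and nothing is read from the counts of these lists. No listed marker with a value was at 0, but Ms4a1, Cd79a and Jchain (B cell list) and Cdh19 (Schwann cell list) were dim and count in the sums. The part of these cell types in the values of Mdk, Ptn and the syndecans was not tested.

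**Figure D5:**
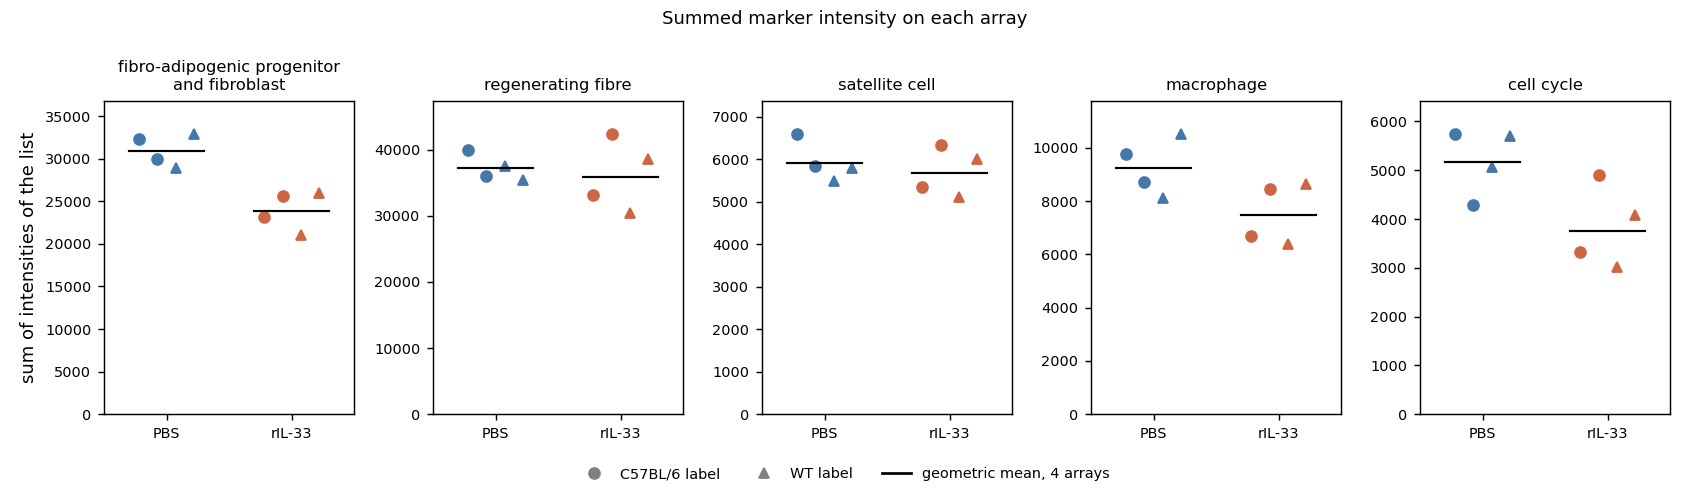
Sum of the linear intensities of all measured genes of 5 marker lists on each array, by treatment (axes from 0; circles C57BL/6 label, triangles WT label, bars geometric means of 4 arrays). The fibro-adipogenic progenitor and fibroblast list shows no overlap between the groups, whereas the other lists shown overlap. The sums of the endothelial list, not shown, did not overlap either.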

How the data were processed

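One biotin-labelled sample of total RNA was hybridised to each of 8 Affymetrix Mouse Gene 1.0 ST arrays. The deposited values are probe set intensities on a linear scale, for which the submitters' processing notes name RMA and Affymetrix Power Tools without versions. RMA has a step that equalises the arrays' distributions, and it compresses differences of dim probe sets. The deposited distributions were not equal, with lower quartiles of 88.3 to 107 and upper quartiles of 512 to 590. Log2 was taken first. Of 24922 probe sets, 21425 had 1 gene symbol in the platform annotation, 1399 had several and 2098 were not listed, and 21347 of the first were matched to RefSeq by gene ID with no change of symbol. Each of the 19752 genes was given by its brightest probe set, and the 4938 genes of lowest mean (below the 25th percentile, 6.65 in log2 intensity) were left out as dim.

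All 14814 remaining genes were fitted in R 4.3.3 with limma 3.58.1 (lmFit, eBayes), for treatment alone, for treatment and label, and with their interaction. P-values were adjusted by Benjamini-Hochberg. SEs come from the fit, and the SE of a dim gene from a fit of all genes. The script was tested on simulated data. Nothing in the labels ties each array to a separate mouse, so the p-values reflect the spread among these 8 samples, whose number limits precision. Members and lists were chosen with earlier results of these data known. The related genes named are those past the threshold or, failing 2, the 2 of largest difference per list, with reference genes and the 5 genes of highest r with Mdk; 1 further reference gene is not reported here. Alternatives were quantile and cyclic loess scaling, other dim filters, eBayes with trend and robust, array weights, blocks, single labels, the mean of probe sets and left-out arrays. Figures were drawn with matplotlib 3.10.9.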

Additional observations from a re-analysis of the deposited data

Results flagged for a closer look

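In 16 groups of 4 arrays (8 genes in both treatments), 1 array stood apart from the 3 others by Dixon's criterion. This was Sdc4 in PBS replicate 1, at an intensity of 570.9, where the gap to the next array made up 0.899 of the group's range. Chance flags about 1 in 20 such groups. Without this array Sdc4 differed by -0.09 between rIL-33 and PBS.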

How the results depend on the processing

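The rIL-33 minus PBS differences of Mdk, Ptn, Sdc1, Sdc2, Sdc3, Sdc4 and Ptprz1 were below 0 in all 20 alternatives, and those of all 8 members moved by less than the SD pooled over both groups. Some of these alternatives could not move a difference. The dim filters and eBayes with trend and robust change only its SE, and each member has 1 probe set to average. The set was chosen by this contrast, so nothing is read from the count of 20. Values without 1 array ranged from -0.48 to -0.38 (Mdk), -0.78 to -0.47 (Ptn), -0.16 to -0.08 (Sdc1), -0.29 to -0.07 (Sdc2), -0.30 to -0.08 (Sdc3), -0.12 to -0.09 (Sdc4), -0.0005 to 0.11 (Alk) and -0.26 to -0.16 (Ptprz1). The count of genes past the treatment threshold, 1 (Retnla), was 0 with the replicate number as a block, 2 within the C57BL/6 label (Mmp12 and Snord118), 4 within the WT label (BC023105, Gm4841, Ppbp and Retnla) and 1 to 2 without 1 array, the second gene without rIL-33 replicate 4 being Snord118. No member was past the threshold in the main fit, so the block had no call among them to take away. Deviations of same-numbered arrays from their group means correlated at 0.44, -0.19, 0.43 and 0.54 for numbers 1 to 4. Arrays of unlike number correlated between -0.60 (rIL-33 replicate 4 with PBS replicate 2) and 0.63 (rIL-33 replicate 1 with PBS replicate 2). The highest value was thus not of a same-numbered pair. Arrays of the same genetic background label correlated between -0.19 and 0.63, and arrays of unlike label between -0.60 and 0.03. The numbers were not taken to pair the samples, and the main fit of treatment leaves out any such shared deviation. The count past the label threshold, 1392, was 415 with quantile and 471 with cyclic loess normalization, 892 with the 50th percentile filter, which tests fewer genes, 3432 with array weights, 796 without treatment in the model, and 10 to 2510 without 1 array. Label differences turned in sign for Mdk (0.043 with quantile, 0.037 with loess normalization) and Sdc4 (0.073 and 0.071), and, without 1 array, for Mdk (-0.10 to 0.025), Sdc4 (-0.030 to 0.0078) and Sdc1 (-0.057 to 0.039). The treatment difference of Myh3 turned to 0.15 with array weights, 0.16 within the C57BL/6 label and 0.07 to 0.14 without 1 array. The causes were not tested. The interaction settings were chosen after seeing the data, and 0 genes passed in any of the 6. Signal over background limits Ptprz1.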
